A study of Petromyzon marinus with 17 samples.

Results

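The regions described here are the non-methylated islands (NMIs) that lie on the small scaffolds of the sea lamprey (Petromyzon marinus) genome, build petMar3. They were chosen by name alone: every interval of the 12 deposited peak lists whose scaffold carries a number of 1000 or higher, with the mitochondrial genome left out. The 12 lists held 84059 such intervals on 5344 scaffolds, out of 1469672 intervals on 6263 scaffolds in all. These scaffolds made up 85.3% of the scaffolds with an NMI and carried 5.72% of the intervals. The scaffold number is the only thing the rule used, so widths, enrichments, replicate agreement and tissue sharing were free to differ.

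NMIs are stretches of DNA in which CpG dinucleotides carry no methyl group. In most vertebrates the bulk of the genome is methylated at CpGs. NMIs, also known as CpG islands, often sit at gene promoters, where the lack of methylation goes with an open, transcription-permissive chromatin. Per the study, the sea lamprey genome is instead methylated at an intermediate level, and NMIs overlap a minority of its transcription start sites. Zinc-finger CxxC domains bind non-methylated CpGs and not methylated ones, and this is what the assay uses. The sea lamprey is a jawless vertebrate that discards part of its genome from the somatic lineage in early embryos, a process called programmed genome rearrangement. DNA that sperm carries can thus be absent from brain, muscle or blood. Per the study, the eliminated sequences it examined were highly methylated in sperm, with depleted BioCAP signal. Which small scaffolds hold eliminated sequences was not examined here.

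BioCAP-seq was run on genomic DNA that was sheared and captured with the biotinylated CxxC domain of human KDM2B, then eluted and sequenced. There were 2 libraries each of sperm, day 1 embryos, day 2 embryos, adult brain, adult muscle and adult peripheral blood mononuclear cells (PBMC). The labels give no treatment or genotype and no age beyond these stages. Per the study's methods replicates were biological, those of muscle and brain included a male and a female fish, and those of PBMC came from different males, so differences between them include differences between animals. Per the study's methods both embryo stages precede the onset of zygotic transcription. A peak list records where captured DNA was enriched and not whether the DNA is present, so an absent NMI and absent DNA cannot be told apart.

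The description "small" could be examined only by the end of the last NMI, since scaffold lengths were not known. The last NMI on any of these scaffolds ended at base 31252, and the median scaffold's last NMI ended at 7.97 kb, against 48.7 kb on scaffolds numbered below 1000 and a maximum of 27616 kb there. This end is a lower bound of the scaffold's length and is called its extent below. Whether the scaffolds are unplaced was not checked, since no assembly report was used. At the dividing number the extents, numbers of NMIs and widths ran on without a step. The 88 scaffolds with NMIs among numbers 1000 to 1099 had a median extent of 25.2 kb and 313 merged NMIs (defined below) in all, and the 86 among numbers 900 to 999 had 26.4 kb and 323. The merged NMIs had a median width of 432 bp inside the rule and 427 bp outside. Those in all 6 tissues made up 25.2% and 23.5%, and those in 1 tissue 21.1% and 25.1%. Both differed in the direction opposite to that between all small and all lower-numbered scaffolds, given below. Scaffolds 1 to 99 held 143858 of the 156614 merged NMIs on lower-numbered scaffolds, so comparisons with these mostly reflect the scaffolds of longest extent.

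1 library stood apart on these scaffolds and is named before the results. PBMC replicate 1 had 146 NMIs of 1 kb or more that overlapped no NMI of PBMC replicate 2. The other 11 libraries had between 0 and 20 such wide unmatched NMIs on the same scaffolds, and PBMC replicate 1 itself had 20 on all lower-numbered scaffolds together. The differences that were tested and the counts of merged NMIs by tissue are therefore also given below without the scaffolds that carry them, and the wide NMIs are described at the end. The lists hold no read counts, so depth is not known from them. Per the study's mapping table the embryo libraries had the fewest uniquely mapped reads, though not the fewest read pairs.

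Every library had NMIs on at least 2907 small scaffolds, and the share of a library's NMIs found there varied little. Sperm had 7296 NMIs in replicate 1 and 8567 in replicate 2. Day 1 had 7370 and 6763, and day 2 had the fewest, 4939 and 5226. Brain had 7490 and 8610, muscle 7319 and 7643, and PBMC 6650 and 6186. The day 2 lists were also the shortest over the whole genome, and as a share of the list day 2 lay among the other tissues.

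In percent of the library's NMIs, sperm had 5.88 and 6.06, day 1 had 6.15 and 5.77, and day 2 had 5.49 and 5.81. Brain had 5.73 and 6.07, muscle 5.20 and 5.41, and PBMC 5.76 and 5.29. Muscle was lowest with a mean of 5.31% ± 0.144 (SD, n = 2) and sperm highest with 5.97% ± 0.133 (SD, n = 2). Sperm and day 1 differed by less than the gap between the replicates of either, and both sperm values lay between those of brain. The replicate values of day 1, day 2 and brain overlapped, as did those of PBMC with muscle, day 2 and brain. The groups of tissues overlapped too. Sperm, day 1 and day 2 had a mean of 5.86% ± 0.183 and brain, muscle and PBMC 5.58% ± 0.300 (SD over 3 tissues each). The difference of 0.282 percentage points was not past the threshold (exact two-sided permutation test over 20 splits of the 6 tissues, p = 0.2, adjusted p = 0.2 over 6 tests). With 3 tissues against 3 the smallest p is 0.1. Without the scaffolds that carry wide PBMC replicate 1 NMIs the difference was 0.398 points, with the same exact p.

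**Figure D1:**
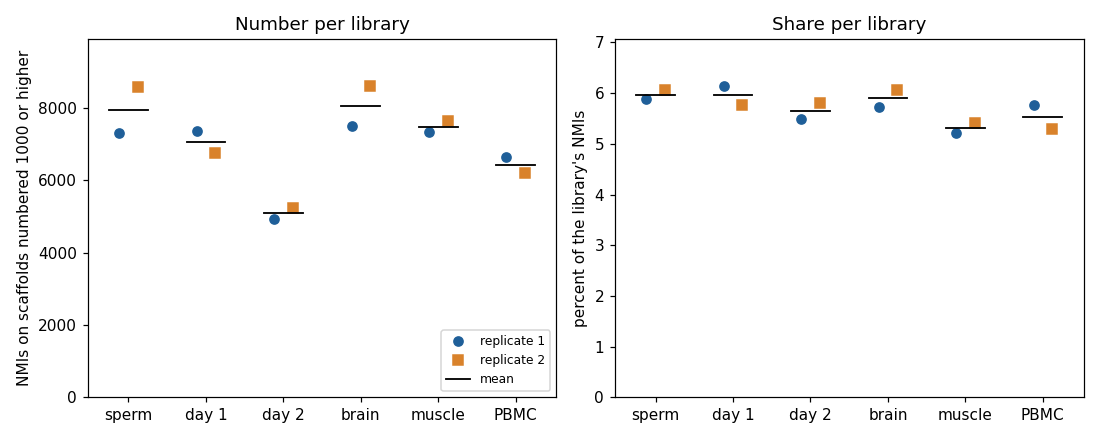
NMIs on scaffolds numbered 1000 or higher, as a number (left) and as a percent of the library's NMIs (right), for replicate 1 (circles) and replicate 2 (squares) of each tissue with their mean (line). Numbers run from 4939 in day 2 replicate 1 to 8610 in brain replicate 2, while the shares stay between 5.20% and 6.15%.

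Most of these scaffolds carried 1 or a few NMIs. In single libraries the mean was between 1.70 NMIs per scaffold in day 2 replicate 1 and 2.11 in brain replicate 2, and the highest count on 1 scaffold was 11 to 13. Between 49.0% and 61.9% of the scaffolds with an NMI had just 1 in that library, the largest shares in the 2 day 2 libraries. To count NMIs once over the tissues, the bases covered in both replicates of a tissue were taken as that tissue's NMI stretches, and stretches of the 6 tissues that overlapped or touched were joined into merged NMIs. This gave 10178 merged NMIs on 4724 small scaffolds, 6.10% of the 166792 in the genome.

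Of the 4724 scaffolds, 2304 carried 1 merged NMI (48.8%), 1090 carried 2, and 431 carried 5 or more. The mean was 2.15, against 174 on the lower-numbered scaffolds, which had far longer extents. Merged NMIs covered 11.7% of the summed extent of 51.2 Mb on small scaffolds and 11.0% of 991 Mb on the others. These shares are upper limits, because the extent leaves out whatever lies beyond the last NMI and every scaffold without an NMI, and both bear more on small scaffolds. They do not compare the density of NMIs in the 2 kinds of scaffold.

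The scaffolds with the most merged NMIs carried rows of islands that most libraries called. PIZI01001241v1 had 12 merged NMIs up to base 28580, of which 5 were found in all 6 tissues. PIZI01001883v1 had 12 up to base 20033, of which 9 were found in all 6 tissues, and they covered 42.8% of its extent. Its libraries called between 9 and 13 NMIs each. PIZI01001029v1, PIZI01001054v1 and PIZI01001100v1 followed with 11 merged NMIs each. PIZI01001100v1 also held the highest fold enrichment on any small scaffold, 95.6 in sperm replicate 1 and 80.9 in sperm replicate 2, against 16.0 in brain replicate 2. On PIZI01001029v1 the PBMC libraries called 4 and 3 NMIs where the sperm libraries called 8 and 10, so scaffolds of this kind were not uniform over tissues.

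**Figure D2:**
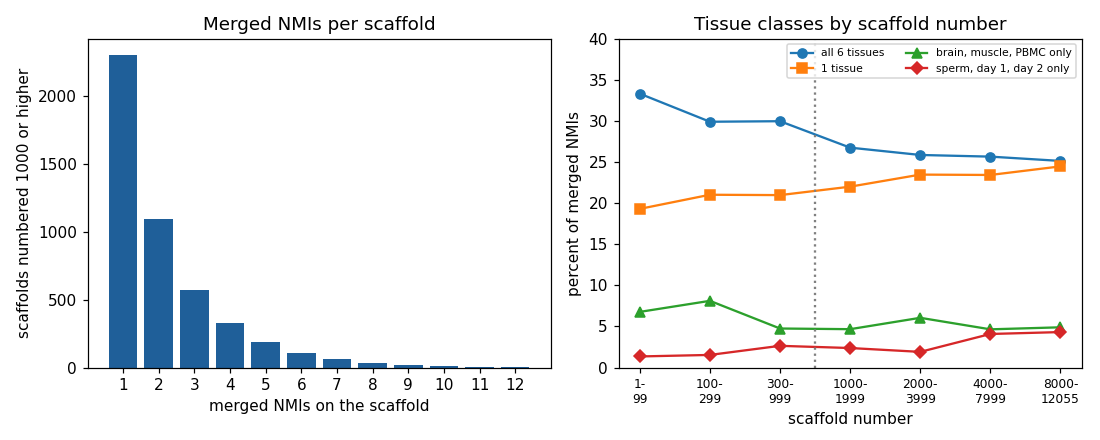
Left, number of scaffolds numbered 1000 or higher by their count of merged NMIs. Right, percent of merged NMIs in 4 tissue classes over 7 ranges of scaffold number, with the dividing number 1000 as a dotted line. Of the 4724 scaffolds on the left, 2304 carry 1 merged NMI. On the right the share found in all 6 tissues goes from 33.3% on scaffolds 1 to 99 to 25.1% on scaffolds 8000 to 12055.

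NMIs on the small scaffolds were narrower than elsewhere in all 6 tissues. The median width, as the mean of the 2 libraries, was 444.5 bp in sperm against 503 bp on lower-numbered scaffolds. It was 399 against 429.5 bp in day 1, 411 against 435 bp in day 2 and 470 against 558 bp in brain. It was 403.5 against 441 bp in muscle and 430 against 475.5 bp in PBMC. Brain, with the widest NMIs, differed most. Over the tissues the difference was -47.4 bp ± 23.4 (SD, n = 6; exact two-sided sign-flip test, p = 0.03125, adjusted p = 0.0469), and p = 0.03125 is the smallest that 6 tissues allow. It was -47.3 bp without the scaffolds carrying wide PBMC replicate 1 NMIs. The 6 tissues share scaffolds and many NMIs, so their differences are not independent, here and in the sign-flip tests below. Among merged NMIs the median was 446 bp with quartiles of 326 and 692 bp, against 511 bp with 355 and 832 bp. Merged NMIs of 2 kb or more made up 1.67% (170) on small scaffolds and 3.40% on the others.

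Enrichment was also lower. The lists give a fold enrichment at the summit of each peak over its local background. Its median in sperm was 9.48 on small and 11.9 on lower-numbered scaffolds. Day 1 had 7.02 and 8.19, and day 2 had 7.64 and 8.72. It was 6.98 and 7.18 in brain, 9.496 and 10.6 in muscle, and 10.035 and 11.7 in PBMC. Sperm thus had the widest gap and brain the narrowest. The mean difference was -1.28 ± 0.736 (SD, n = 6; exact two-sided sign-flip test, p = 0.03125, adjusted p = 0.0469). This call did not hold in equally long lists, made of the 89977 peaks with the best q in each library, where the difference was -0.605 with an exact p of 0.156 (adjusted p = 0.188).

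The -log10 q, the peak caller's strength of evidence, differed in the same direction. Its medians were 39.7 and 61.5 in sperm, 10.7 and 12.4 in day 1, 11.5 and 13.0 in day 2, 21.9 and 28.5 in brain, 25.9 and 37.0 in muscle, and 29.7 and 44.3 in PBMC. The values grow with depth as well as with enrichment, so they compare scaffolds within a library and not libraries with each other. The mean difference was -9.53 ± 7.89 (SD, n = 6; exact two-sided sign-flip test, p = 0.03125, adjusted p = 0.0469). Without the scaffolds that carry wide PBMC replicate 1 NMIs it was -9.18, and that of fold enrichment -1.21. The strongest NMIs were not missing from small scaffolds. The highest fold enrichment per library was 56.9 to 95.6 there and 47.4 to 93.0 elsewhere.

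Replicates agreed on most NMIs of the small scaffolds, though on fewer than elsewhere. An NMI counted as matched where at least 1 bp of it overlapped an NMI of the other replicate. Averaged over both directions, 90.7% matched in sperm against 93.3% on lower-numbered scaffolds, 84.1% against 87.6% in day 1, and 83.9% against 87.6% in day 2. In brain 87.7% matched against 91.2%, in muscle 91.7% against 94.9%, and in PBMC 88.5% against 93.6%. The order of the tissues was nearly alike on both kinds of scaffold, with muscle and sperm high and the embryos low. The difference was -3.60 percentage points ± 0.853 (SD, n = 6; exact two-sided sign-flip test, p = 0.03125, adjusted p = 0.0469). It was -2.89 points without the scaffolds that carry wide PBMC replicate 1 NMIs. Lower values were not particular to the small scaffolds. Mean agreement was 91.4% on scaffolds 1 to 99, 89.6% on 300 to 999, outside the rule, and 88.8% on 1000 to 1999. In the same ranges the mean of the library median widths was 475, 445 and 429 bp, and that of fold enrichment 9.77, 9.02 and 8.77.

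The unmatched NMIs were mostly short and weak in every library. Their median width was 244 to 306.5 bp over the 12 libraries, against 415 to 567 bp for matched NMIs, and their median -log10 q was 4.65 to 9.96 against 12.2 to 51.4. Agreement was split further by dividing each library's peaks into 4 equal bins by fold enrichment, a comparison chosen after seeing the data. In the bin of lowest enrichment 68.7% of NMIs on small scaffolds matched against 71.7% elsewhere (mean over 6 tissues). In the highest bin it was 99.8% against 99.985%. For width, in the lowest bin the medians were 295.5 and 295.4 bp, and in the highest 680 and 787 bp, a difference of -107 bp ± 92.6 (SD, n = 6). In the highest bin nearly all NMIs matched on both kinds of scaffold, which leaves little room for a difference there. Averaged over the 4 bins the difference in agreement was -1.91 percentage points and that in width -43.4 bp, both with an exact p of 0.03125 (adjusted p = 0.0469). As a mean over the 6 tissues the difference in agreement was thus smaller within bins of fold enrichment. Brain was the exception, with -4.95, -8.34, -1.47 and -0.0689 points in the 4 bins against -3.49 undivided. Day 1 had -0.0202, 0.391, -0.681 and -0.0230 points against -3.51. Width in the highest bin also differed between tissues, from -270 bp in brain to -11.0 bp in day 2.

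**Figure D3:**
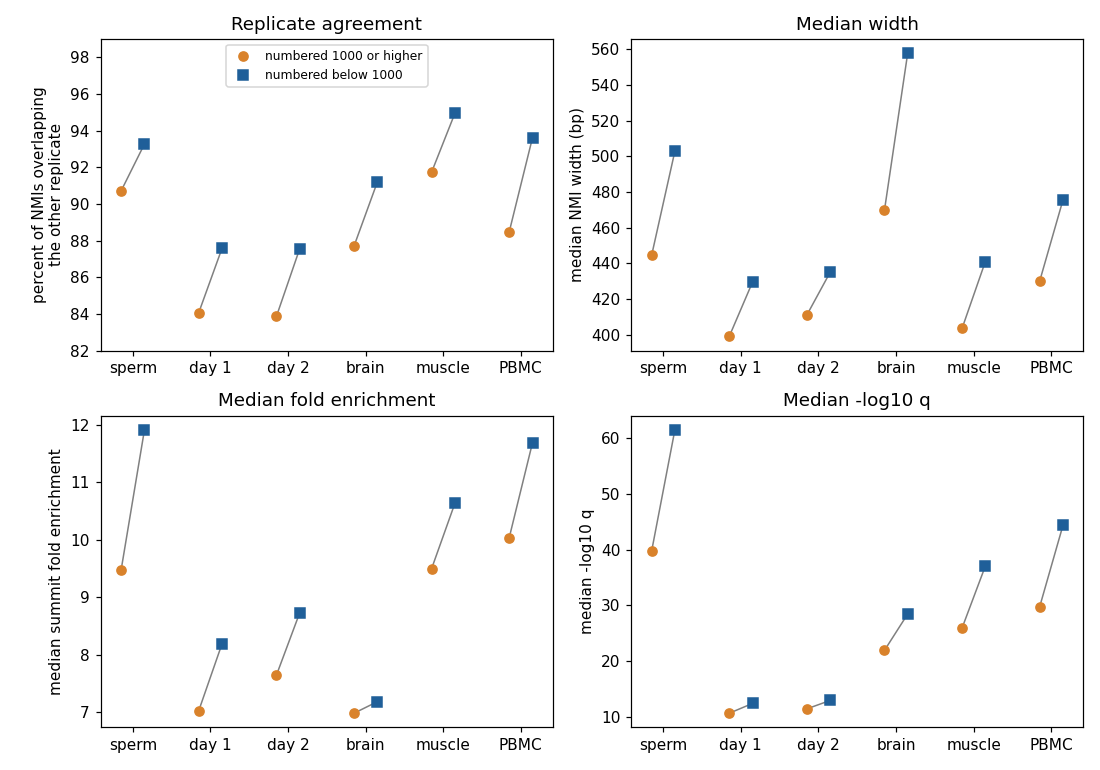
Replicate agreement (percent), median width (bp), median summit fold enrichment and median -log10 q per tissue, on scaffolds numbered 1000 or higher (circles) and below 1000 (squares), each the mean of 2 libraries. The axes do not start at 0. In every pair the circle lies below the square. The gap in fold enrichment is smallest in brain, at 6.98 and 7.18.

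Fewer of the merged NMIs were shared by all tissues. On the small scaffolds 2640 merged NMIs (25.9%) were found in all 6 tissues, against 33.1% on lower-numbered scaffolds and 32.6% over the genome. At the other end, 2364 (23.2%) were found in 1 tissue, against 19.4% and 19.7% over the genome. Intermediate counts differed less, with 14.9%, 14.1%, 10.5% and 11.4% in 2, 3, 4 and 5 tissues. Merged NMIs were wider where more tissues shared them, from a median of 278 bp in 1 tissue to 791 bp in all 6. A merged NMI joins the stretches of all its tissues, so its definition alone can make its width grow with their number. At each number of tissues the merged NMIs of small scaffolds were narrower than their counterparts on lower-numbered scaffolds, where the medians ran from 286 to 911 bp.

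Counted by tissue, the shares below restate the same merged NMIs of all 6 tissues over each tissue's own stretches. Day 2 stretches, the shortest list, lay within an NMI of all 6 tissues in 67.2% of cases on small scaffolds and in 80.4% elsewhere. For day 1 these shares were 49.4% and 63.2%, for sperm 39.5% and 49.9%, and for PBMC 50.1% and 57.2%. Brain had 38.0% and 44.3%, and muscle 42.3% and 47.5%. Overlap between tissues, as the Jaccard index of covered bases, was lower on small scaffolds in all 15 pairs of tissues. Pairs within sperm, day 1 and day 2 or within brain, muscle and PBMC had a mean of 0.573 ± 0.0521 (SD over 6 pairs), and pairs across the groups 0.455 ± 0.0589 (SD over 9 pairs). Elsewhere these means were 0.607 and 0.505. The pairs overlapped between the groups. Sperm and day 2 had 0.476 on small scaffolds, below sperm with brain (0.514), muscle (0.551) and PBMC (0.499), and the same order held elsewhere. The pairs share tissues and were not tested.

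Of a tissue's stretches, those found in no other tissue made up 9.21% on small scaffolds against 6.97% elsewhere in sperm, 4.47% against 1.55% in day 1 and 0.509% against 0.100% in day 2. In brain the shares were 10.3% and 7.31%, in muscle 6.71% and 6.75%, and in PBMC 3.45% and 2.97%. Only muscle was thus not higher on small scaffolds. The mean difference of 1.51 percentage points ± 1.38 (SD, n = 6) was not past the threshold (exact two-sided sign-flip test, p = 0.0625, adjusted p = 0.075). It was 1.37 points without the scaffolds that carry wide PBMC replicate 1 NMIs. Small scaffolds held 6.10% of merged NMIs. Of the stretches without a counterpart they held 14.8% for day 1 and 22.4% for day 2, the latter 22 stretches. For brain this was 7.75%, for sperm 7.50%, for PBMC 5.98% and for muscle 5.09%. The share of merged NMIs is over all tissues and is no yardstick for a single tissue. Of a tissue's own NMIs, small scaffolds held 5.52% in PBMC and 5.31% in muscle (means of 2 libraries).

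Stretches in 1 tissue were mostly short, and many were not without trace elsewhere. On small scaffolds their median width was 261.5 to 290.5 bp in each tissue. Of the 666 in sperm, 63.7% overlapped an NMI in at least 1 library of another tissue that its replicate did not repeat at the same bases. This share was 51.9% of the 270 in day 1, 90.9% of the 22 in day 2, 52.7% of the 744 in brain, 48.3% of the 464 in muscle and 58.6% of the 198 in PBMC. On lower-numbered scaffolds the share was higher for day 1 (72.1%) and lower for day 2 (71.1%), muscle (38.4%) and brain (46.1%). For PBMC (57.3%) and sperm (63.6%) it differed by less than 2 percentage points. These differences were not tested. Such stretches are thus single to a tissue only under the rule that both replicates must cover them.

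**Figure D4:**
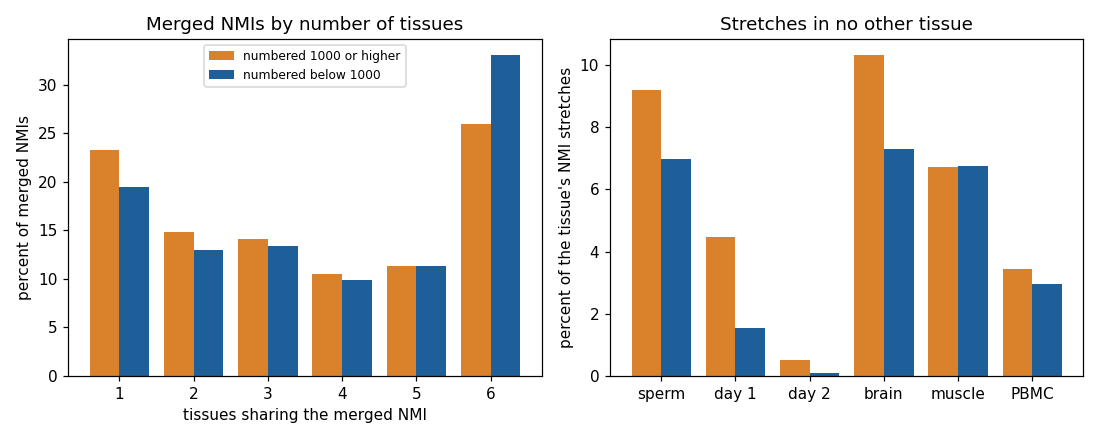
Left, percent of merged NMIs by the number of tissues that share them, on scaffolds numbered 1000 or higher and below 1000. Right, percent of each tissue's stretches found in no other tissue. All 6 tissues share 25.9% on small and 33.1% on other scaffolds, and muscle is the tissue in which the bars on the right are level, at 6.71% and 6.75%.

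The longest merged NMIs in 1 tissue also had calls in libraries of other tissues, though at no base in both replicates of another tissue. On PIZI01005413v1, bases 6118 to 7427 were called as an NMI of 1330 bp in sperm replicate 1 and 1340 bp in sperm replicate 2, with fold enrichments of 11.8 and 11.3. Day 1 replicate 2, day 2 replicate 2 and PBMC replicate 1 had short NMIs in it with fold enrichments of 4.53, 4.20 and 4.72, while brain and muscle had none. On PIZI01008660v1, bases 2924 to 4114 overlapped NMIs of 1192 and 1544 bp in brain, with 6.23 and 6.75. Both replicates of day 1 had short NMIs there, with 3.35 and 4.05, as did both of PBMC, with 3.34 and 4.14. In neither tissue did the NMIs of the replicates share a base. Day 2 replicate 1 had an NMI with 4.65. On PIZI01005360v1, bases 4209 to 5300 were called in brain with 3.75 and 3.83. Sperm replicate 2 had an NMI of 251 bp there with 3.53.

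Merged NMIs confined to sperm, day 1 and day 2 were more frequent on the small scaffolds, and those confined to brain, muscle and PBMC less. The first class, found in all 3 of sperm, day 1 and day 2 and in none of the adult tissues, had 304 members on 284 small scaffolds. That is 2.99% of merged NMIs, against 1.39% on lower-numbered scaffolds and 1.49% over the genome. The ratio of the shares was 2.15, and over the other settings tried it lay between 1.56 and 3.29. The reverse class, found in brain, muscle and PBMC and in none of the others, had 523 members on 454 scaffolds, or 5.14% against 6.81% and 6.71% over the genome. No test was made of these shares. Without the scaffolds that carry wide PBMC replicate 1 NMIs the classes held 304 and 519 merged NMIs, with 2626 in all 6 tissues and 2292 in 1 tissue.

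The share of the first class varied over the small scaffolds. It was 2.37% of merged NMIs on scaffolds 1000 to 1999, 1.91% on 2000 to 3999, 4.08% on 4000 to 7999 and 4.32% on 8000 to 12055. On scaffolds 300 to 999, just outside the rule, it was 2.64%, so the shares around the dividing number were alike and the higher ones lay from scaffold 4000 upward. The reverse class had 8.12% on scaffolds 100 to 299 and 4.75% on 300 to 999. In the same ranges from 1000 upward it had 4.67%, 6.05%, 4.65% and 4.90%. Its lower share was thus not particular to the small scaffolds. Fold enrichment in the first class was lower on small scaffolds in sperm and close to that elsewhere in the embryos, which was not tested. The sperm medians were 7.93 and 8.58 on small scaffolds and 12.3 and 13.8 elsewhere. The day 1 medians were 8.81 and 7.96 against 8.66 and 8.27, and those of day 2 were 6.74 and 7.01 on both.

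The 3 longest NMIs of sperm, day 1 and day 2 only lay on PIZI01007837v1, PIZI01003775v1 and PIZI01003397v1. Fold enrichments of named NMIs and scaffolds are given as listed, without correction for the scale of each library. On PIZI01007837v1 bases 400 to 5192 formed 1 merged NMI, 67.6% of the extent. Day 1 covered 5690 and 4799 bp of it or beyond in single NMIs with fold enrichments of 7.91 and 4.84, and day 2 covered 4636 and 5389 bp with 8.07 and 6.61. Sperm had 4 short NMIs in each replicate, together 1446 and 2293 bp, with fold enrichments of 1.58 and 1.86. No adult library had an NMI there, so the embryos were high, sperm was low and the adult tissues were without a call.

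On PIZI01003775v1, bases 11651 to 14103, the 2 day 1 libraries had fold enrichments of 10.8 and 7.94, sperm 3.852 and 3.897, and day 2 5.71 and 3.91. Brain replicate 2 had 1 NMI of 219 bp with 1.79. On PIZI01003397v1, bases 14192 to 16297, the order was the other way round. Sperm had 16.8 and 12.8, day 1 had 8.99 and 6.97, and day 2 had 7.48 and 5.67. The sperm NMIs spanned 2257 and 2106 bp, and those of day 1 867 and 883 bp. No adult library had a call.

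The 3 longest NMIs of brain, muscle and PBMC only were called in all 6 adult libraries, as the class requires. On PIZI01001834v1, bases 8280 to 10104, fold enrichment was 27.4 and 22.7 in brain, 37.9 and 42.1 in muscle and 52.1 and 36.0 in PBMC. Sperm replicate 2 had 1 NMI of 245 bp with 5.04, and the other sperm and embryo libraries had none. On PIZI01002830v1, bases 11041 to 12836, fold enrichment was 20.1 and 20.0 in brain, 24.0 and 21.5 in muscle, and 22.7 and 24.8 in PBMC. The brain NMIs spanned 1796 and 2032 bp, and those of muscle and PBMC 856 to 912 bp. On PIZI01005219v1, bases 5486 to 7195, PBMC was highest with 18.2 and 19.5, followed by muscle with 9.22 and 10.2 and brain with 7.19 and 4.99. Neither of these had a call in sperm or embryos.

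Of the 3 longest NMIs shared by all 6 tissues, 2 began within the first 100 bases of their scaffolds and were the only merged NMI there. On PIZI01008505v1 the merged NMI covered bases 69 to 6596. Day 1 had fold enrichments of 51.4 and 18.2, and day 2 had 26.1 and 26.5. It was 6.04 and 16.5 in brain, and 2.80 and 3.53 in sperm. Muscle had 1.505 and 2.80, and PBMC 2.72 and 1.90. The embryos were thus above all other libraries, and replicates of brain and of day 1 differed by more than a factor of 2.

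PIZI01009292v1 had a merged NMI over bases 1 to 5606 and 1 NMI in each of the 12 libraries, and here brain stood with the embryos. Fold enrichment was 61.5 and 24.7 in day 1, 34.8 and 44.0 in day 2, and 34.2 and 26.4 in brain. PBMC had 12.1 and 8.09, sperm 7.33 and 9.15, and muscle 7.64 and 7.50. PIZI01003353v1 differed from both. Its merged NMI, bases 9540 to 15113, covered 32.8% of the extent, and the fold enrichments of the 12 libraries lay between 17.2 and 42.3. Brain called it as 1 NMI in each replicate and the other libraries as 2 to 4.

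Scaffolds also differed in how many libraries had a call on them. Of the 5344 small scaffolds, 2040 (38.2%) had an NMI in all 12 libraries and 398 (7.45%) in 1 library, against 75.6% and 1.74% of the 919 lower-numbered scaffolds. Small scaffolds carried fewer NMIs each, and the part of this in these counts was not tested. Both replicates of a tissue had an NMI on 83.3% (day 2) to 90.3% (muscle) of the small scaffolds that either had.

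On 391 small scaffolds both replicates of sperm had NMIs while the 6 adult libraries had none. That is 7.32% of the small scaffolds and 3.16% (29) of the others, with 6.71% over all scaffolds, of which 85.3% were small. Small scaffolds carried fewer NMIs each, and the part of this in this set and the next was not tested. Of the 391, 324 carried 1 merged NMI and 5 carried 3 or more. Day 1 had NMIs on 282 of them in replicate 1 and 248 in replicate 2, and day 2 on 166 and 169. These were 72.1% and 63.4% in day 1 and 42.5% and 43.2% in day 2. The choice of the scaffolds fixes sperm at all of them. Over all 5344 small scaffolds, day 1 had an NMI on 3775 and 3558 and day 2 on 2907 and 3055. Of all sperm stretches on small scaffolds, 71.9% overlapped a day 1 stretch and 54.2% a day 2 stretch. These shares count stretches that both replicates cover, and not scaffolds with any NMI in a library. They are therefore no yardstick for the shares of scaffolds. Their sperm NMIs had median fold enrichments of 4.88 and 5.49, under the sperm median of 9.48 on small scaffolds.

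134 small scaffolds had NMIs in all 6 adult libraries and in no sperm or embryo library, or 2.51% against 0.979% (9) of the others and 2.28% over all scaffolds. Of the 134, 76 carried 1 merged NMI and 30 carried 3 or more. Their fold enrichments were 6.39 and 6.51 in brain, 8.08 and 7.59 in muscle, and 10.3 and 7.98 in PBMC. The medians of all NMIs on small scaffolds were 6.98, 9.496 and 10.035 in these tissues. Without sperm replicate 1 the first set had 531 scaffolds, and without sperm replicate 2 the second had 167.

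Among the sperm scaffolds, PIZI01007629v1 had the most merged NMIs, 5, between bases 2419 and 7364. It had 5 and 6 NMIs in the sperm libraries, 4 and 5 in day 1, and 2 in each day 2 library. The highest fold enrichment was 2.48 and 3.44 in the sperm libraries, 8.95 and 6.68 in those of day 1, and 6.03 and 8.90 in those of day 2, so the embryos were above sperm. PIZI01001570v1 had 4 merged NMIs, of which bases 17829 to 18241 were shared by sperm, day 1 and day 2 and 2 others were found in 1 tissue. Its highest fold enrichments were 10.3 and 12.9 in the sperm libraries, 10.7 and 8.40 in those of day 1, and 5.99 and 7.97 in those of day 2. PIZI01001045v1 had 3 merged NMIs, of which bases 810 to 1225 were shared by sperm, day 1 and day 2. On this scaffold the highest fold enrichment was 5.05 and 5.93 in sperm, beside -log10 q values of 84.8 and 64.1.

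Among the adult scaffolds, PIZI01001542v1, PIZI01002457v1 and PIZI01002617v1 had 5 merged NMIs each. On PIZI01001542v1 brain had 5 and 4 NMIs, muscle 7 and 5, and PBMC 2 in each replicate. Its highest fold enrichments were 10.5 and 12.2 in brain, 11.0 and 8.98 in muscle, and 5.17 and 6.17 in PBMC, the lowest. On PIZI01002457v1 they were 30.8 and 20.2 in brain, 36.6 and 24.5 in muscle, and 35.2 and 35.1 in PBMC. It carried the widest of these NMIs, bases 4063 to 5150, in all 3 tissues. On PIZI01002617v1 they were 19.1 and 15.4 in brain, 33.1 and 30.1 in muscle, and 45.4 and 32.1 in PBMC, so PBMC was highest and brain lowest.

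The wide NMIs of PBMC replicate 1 were seen on 107 small scaffolds and were chosen for description after their values were seen. The 146 NMIs had a median width of 1719 bp, a median fold enrichment of 14.7 and a median -log10 q of 42.0. The choice of 1 kb or more fixes their width, and all unmatched NMIs of PBMC replicate 1 on small scaffolds had a median of 306.5 bp. Together with the rest of the unmatched NMIs they made up 16.5% of the NMI bases of PBMC replicate 1 on small scaffolds, against 2.10% on the others. In the other 11 libraries unmatched NMIs held 1.29% to 12.3% of the bases on small scaffolds. PBMC replicate 2 had an NMI on 17 of the 107 scaffolds.

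Libraries of other tissues had NMIs over many of them. Muscle replicate 2 overlapped 87 of the 146, brain replicate 1 79, and brain replicate 2 and sperm replicate 2 48 each. Muscle replicate 1 overlapped 9, day 1 replicates 15 and 3, day 2 replicates 3 and 2, and sperm replicate 1 none. The replicates of muscle and of sperm thus also differed widely here. 44 overlapped no NMI of any other library, beside 324 (4.87%) of all 6650 NMIs of PBMC replicate 1 on small scaffolds. The 146 were chosen as unmatched, so these counts are not like for like. The overlap of all 6650 with each single library was not counted. On the 107 scaffolds PBMC replicate 1 covered 432 kb with NMIs and PBMC replicate 2 16.5 kb. Muscle covered 33.5 and 106 kb, brain 97.9 and 66.4 kb, and sperm 17.7 and 59.5 kb.

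The strongest lay on PIZI01007637v1, bases 2208 to 7738, with a fold enrichment of 90.9 and a -log10 q of 417. On that scaffold the highest fold enrichment was 58.0 and 16.4 in brain, 24.2 and 25.1 in muscle, 9.95 in sperm replicate 2 and 18.1 in day 1 replicate 1. Sperm replicate 1, day 1 replicate 2 and PBMC replicate 2 had no NMI on it. PIZI01010641v1, bases 1 to 3618, had 73.3 in PBMC replicate 1, 47.7 and 15.4 in brain, 19.1 and 17.9 in muscle and no call in sperm replicate 1 or PBMC replicate 2. Libraries of 1 tissue thus differed from having no call to having among the strongest calls of their list. The lists do not show whether the reads behind these calls came from these scaffolds, so the fold enrichments describe the alignments of each library, and what sets the libraries apart was not tested.

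**Figure D5:**
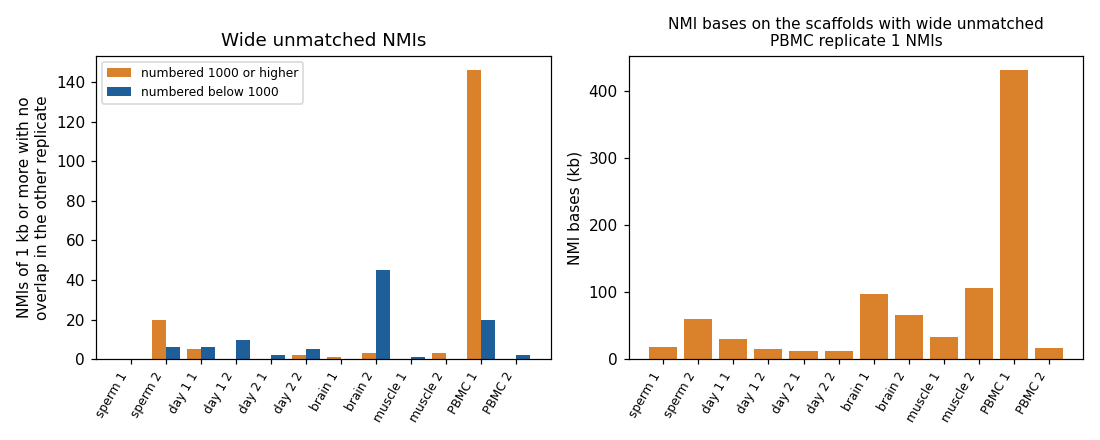
Left, NMIs of 1 kb or more that overlap no NMI of the other replicate, per library, on scaffolds numbered 1000 or higher and below 1000. Right, kb covered by NMIs in each library on the 107 small scaffolds that carry the 146 such NMIs of PBMC replicate 1. PBMC replicate 1 covers 432 kb there and PBMC replicate 2 16.5 kb.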

How the data were processed

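BioCAP-seq peak lists of 12 sea lamprey libraries were analysed. 5 input libraries that the labels also name were not analysed here, and none of them is of PBMC. Per the study's methods and the submitters' processing notes, reads were trimmed with Trimmomatic, aligned to petMar3 with Bowtie2, freed of duplicates with Picard, and peaks were called per library with MACS2. The study's methods name input controls and signal tracks made relative to input. The sources used here do not state the caller's options or whether peak calling used the inputs. Nor do they state how peak calling treated reads that map to several places, which can change calls on repeated sequence.

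The deposited lists hold, for each peak, a score, a fold enrichment (a ratio over local background), a -log10 p-value, a -log10 q-value and the summit position. The lowest -log10 q was 1.30. The score and the -log10 p-value deposited by the authors were not used. 7 mitochondrial peaks in 5 libraries were left out. Width is end minus start, and coordinates are given counting from 1.

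Tissues were the unit of each test, with the mean of 2 libraries: exact two-sided sign-flip tests of small minus lower-numbered scaffolds, and an exact permutation test between tissue groups, with Benjamini-Hochberg adjustment over 6 tests. The tests treat the tissues as independent, though these share scaffolds and many NMIs. Counts of merged NMIs and scaffolds were not tested. The scaffolds and NMIs named were the 5 scaffolds with most merged NMIs, the 3 longest NMIs of each of 4 tissue classes, and the 3 scaffolds with most merged NMIs in each scaffold set. The members and lists were chosen with earlier results of these data known. Alternatives were stricter q, equally long lists, other dividing numbers, libraries left out and other overlap rules. The functions were checked on simulated lists, with Python 3.11.15, NumPy 2.4.6 and pandas 2.3.3.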

Additional observations from a re-analysis of the deposited data

How the results depend on the processing

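The differences between small and lower-numbered scaffolds in replicate agreement, width, fold enrichment and -log10 q kept their direction in every alternative run. PBMC is the tissue without an input library. With PBMC left out the differences were -3.29 percentage points, -47.8 bp, -1.21 and -8.52. The exact p was then 0.0625 for each (adjusted p = 0.075), the smallest that 5 tissues allow. Fold enrichment also lost its call with weaker peaks, of -log10 q under 10, removed (-0.899) and in equally long lists (-0.605), and the cause was not tested.

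With 1 library left out in turn, agreement lay between -3.81 and -3.29 points, and its 5 remaining tissues could not reach 0.05. The share of stretches in no other tissue lay between 1.38 and 2.25 points, and passed the threshold without muscle replicate 1 (1.57), muscle replicate 2 (1.65) or PBMC replicate 1 (1.67). It also passed with peaks under a -log10 q of 10 left out (2.03) and without peaks in the first 1 kb (1.72). Counts moved by over 1.5 times at a -log10 q of 10 or more, to 1396 merged NMIs in all tissues and 197 in sperm, day 1 and day 2 only. In equally long lists those of brain, muscle and PBMC only fell to 282 and the adult scaffolds to 75. With PBMC left out these were 872 and 216, of brain and muscle alone, a definition that asks for fewer tissues. The cause of the other moves was not tested.

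Fitting the replicate number as a replicate block gave 0.282 percentage points, -47.4 bp, -1.28 and -9.53 for share, width, fold enrichment and -log10 q, the unblocked values, since each tissue has both numbers. The numbers did not pair the libraries: deviations of same-numbered libraries correlated between -0.0891 and 0.0976 over 15 pairs of tissues. Depth limits weak calls, and the lists do not give it.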

Other observations

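Scaffold lengths were not known, and the extent ends with the last NMI, so a single NMI near the start of a scaffold covers most of its extent by definition. With this limit, merged NMIs covered over 50% of the extent on 343 small scaffolds and on 5 of the others, and over 90% on 55 and 0. In single libraries 117 (day 2 replicate 1) to 307 (brain replicate 2) small scaffolds were covered over 50%. Between 10.6% and 11.8% of NMIs on small scaffolds began in the first 1 kb, against 0.0506% to 0.0833% elsewhere. The 5344 small scaffolds had a summed extent of 51.2 Mb and the 919 others 991 Mb. The first 1 kb is thus a far larger part of a small scaffold's extent, and these shares do not show that NMIs gather at scaffold starts. The first base itself was the start of 20 to 50 NMIs per library, most often in sperm, with 50 and 48, and in PBMC replicate 1, with 44.

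The share of a library's NMIs that overlapped no NMI in any of the other 11 libraries was also uneven on small scaffolds. It was 6.50% in brain replicate 2, 4.87% in PBMC replicate 1, 4.24% in sperm replicate 2 and 3.87% in day 1 replicate 1, and at most 1.69% in the rest. On lower-numbered scaffolds brain replicate 2 had 4.26%, PBMC replicate 1 0.438% and sperm replicate 2 3.56%.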
